A study of Mus musculus with 36 samples.

Results

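Immediate early genes are switched on within minutes of a stimulus without new protein synthesis, and 10 of them were followed here, out of 56748 genes in the deposited expression table: *Fos*, *Fosb*, *Jun*, *Junb*, *Atf3*, *Egr1*, *Nr4a1*, *Myc*, *Ier2* and *Ier3*. They were picked by gene name, and all 10 were found in the table. The libraries came from epididymal fat, called visWAT, and from the liver of the same 18 male C57BL/6J mice, so that 36 RNA-seq libraries were compared in 8 groups. Adipocyte-specific *Mlkl* knockout mice (KO) carried *Mlkl* alleles flanked by loxP sites together with Cre driven by the adiponectin promoter, which acts in mature adipocytes, and WT littermates carried the flanked alleles without Cre. In each tissue 4 KO and 4 WT mice had normal chow (NCD), while 5 KO and 5 WT mice had a high-fat diet (HFD), in each case for 16 weeks from an age of 16 weeks. All HFD mice were numbered from 151 to 164 and all NCD mice from 165 to 199. Diet and anything that follows the mouse numbers therefore cannot be told apart, and what the numbers stand for is not given in the sources used here. Because Cre acts in mature adipocytes, *Mlkl* stays intact in the other cells of visWAT and in the liver. Blood was drawn retro-orbitally at the end, and the mice were killed with isoflurane followed by cervical dislocation. RNA of visWAT was extracted with QIAzol and RNA of liver with a column kit, so tissue and extraction cannot be told apart.

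The products of these genes are mostly transcription factors. Growth factor, stress and calcium signals reach them through ERK, p38 and JNK kinases and through the promoter-bound factors SRF and CREB, and their mRNAs are short-lived, so that their levels report what a tissue met shortly before its RNA was fixed. In adipose tissue and liver they respond to feeding, inflammation and injury, and they also respond to dissection and to the handling of an animal.

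The label checks on the libraries were as follows. In visWAT, *Mlkl* was 1.96 to 2.72 FPKM in the 9 KO libraries and 3.91 to 6.28 FPKM in 8 of the 9 WT libraries. The library of WT mouse 182 on NCD was at 2.29 FPKM, within the KO range, so this library goes against its WT label, and groups of visWAT called WT on NCD below include it as labelled. By chi-square per gene of the reads, it also differed from the libraries of WT mice 165 and 180 on NCD, by 282.9 and 186.8. Those of mice 165 and 180 differed from each other by 33.64. The reason for the low *Mlkl* of mouse 182 was not tested. In the visWAT library of WT mouse 183 on NCD, 17.9% of reads on genes fell on 6 seminal vesicle markers. Values without mice 182 and 183 are given beside the results they changed most. Mature adipocyte markers summed to between 5102 and 21830 FPKM in visWAT, and hepatocyte markers to between 45840 and 71060 FPKM in liver. In visWAT, hepatocyte markers summed to 859 to 1976 FPKM in WT and 1070 to 1256 FPKM in KO mice on NCD. On HFD they summed to 24.6 to 161 FPKM in WT and 60.5 to 1224 FPKM in KO mice. Red blood cell markers in visWAT summed to 716 to 1767 FPKM in WT and 1131 to 2109 FPKM in KO mice on NCD. On HFD these were at 305 to 643 FPKM in WT and 564 to 3909 FPKM in KO mice. What lay behind these differences was not tested. Between 20875463 and 30322171 reads per library fell on genes.

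The promoters of *Fos*, *Fosb*, *Junb* and *Atf3*, which encode members or relatives of the AP-1 family, are shown here because TGACG, the half-site of CREB, lies in each of them. Each line gives the 250 bases before the RefSeq start site (RefSeq, GRCm38.p6), 5' to 3' on the strand of the gene, with matches in capitals. Both strands were searched for TGACG (read on the other strand as CGTCA), for the AP-1 site TGANTCA, for the TATA box TATAAA and for the CArG box bound by SRF, and no match overlapped another.
Fos: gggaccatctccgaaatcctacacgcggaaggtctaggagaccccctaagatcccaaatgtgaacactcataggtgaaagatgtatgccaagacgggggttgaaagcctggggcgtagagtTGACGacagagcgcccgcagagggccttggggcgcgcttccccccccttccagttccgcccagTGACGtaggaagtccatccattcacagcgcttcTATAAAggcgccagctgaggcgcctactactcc
Fosb: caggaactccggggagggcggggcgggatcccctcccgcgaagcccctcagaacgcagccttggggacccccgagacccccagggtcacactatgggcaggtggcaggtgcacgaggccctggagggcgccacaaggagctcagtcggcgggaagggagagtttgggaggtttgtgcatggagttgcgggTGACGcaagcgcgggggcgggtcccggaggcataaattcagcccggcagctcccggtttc
Junb: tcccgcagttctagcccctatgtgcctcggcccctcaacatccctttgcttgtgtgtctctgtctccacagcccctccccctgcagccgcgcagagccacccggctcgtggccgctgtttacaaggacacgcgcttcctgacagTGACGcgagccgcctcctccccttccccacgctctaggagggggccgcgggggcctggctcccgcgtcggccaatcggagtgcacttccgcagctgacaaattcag
Atf3: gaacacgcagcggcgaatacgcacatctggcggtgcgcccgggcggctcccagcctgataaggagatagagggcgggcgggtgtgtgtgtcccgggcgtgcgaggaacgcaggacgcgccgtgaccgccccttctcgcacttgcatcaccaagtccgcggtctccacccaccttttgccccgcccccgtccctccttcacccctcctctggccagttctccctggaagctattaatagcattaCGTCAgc
Matched to GRCm39, the stretch for *Fos* is chr12:85520414-85520663 on the plus strand, and those for *Fosb* (chr7:19043971-19044220), *Junb* (chr8:85705378-85705627) and *Atf3* (chr1:190915531-190915780) are on the minus strand. The *Fos* and *Fosb* stretches share 6 bases, and the *Atf3* stretch 7 bases, with an annotated exon of the same gene, and the *Junb* stretch overlaps no annotated gene. The *Atf3* stretch lies within the span of its gene (chr1:190902493-190950236), downstream of the annotated 5' end, so the start site used is an internal one. The only match in the *Atf3* stretch has its first base at -7. The *Fos* promoter holds TGACG with first bases at -129 and -66 and TATAAA with its first base at -33, counted from the start site. Of the 7 members with an entry in the promoter table, 5 held TGACG on either strand, among them *Nr4a1* with 4 matches, against 17.6% of 27025 promoters of the same length. TATAAA was in 1 of 7, against 12.9% of promoters. The CArG box (1.39% of promoters) and TGANTCA (6.87%) were found in 0 of 7 in this window, which says nothing of sites elsewhere. A match is a string of letters, not a measured binding site.

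In visWAT, *Jun* had the highest median level of the 10 genes over 18 libraries, at 21.4 FPKM, followed by *Junb* at 13.8, *Fos* at 13.3, *Atf3* at 13.2 and *Ier2* at 12.5 FPKM. FPKM counts fragments per kilobase of gene, scaled to the size of the library, so levels of different genes are set per length. *Egr1* (5.83), *Ier3* (5.06), *Myc* (4.81) and *Nr4a1* (2.93 FPKM) lay below them, and *Fosb* was lowest at 0.461 FPKM. Neighbours in this order overlapped widely from mouse to mouse. *Atf3* had the widest span, 48.8-fold between its highest and lowest library, and *Ier3* the narrowest, 1.87-fold.

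**Figure D1:**
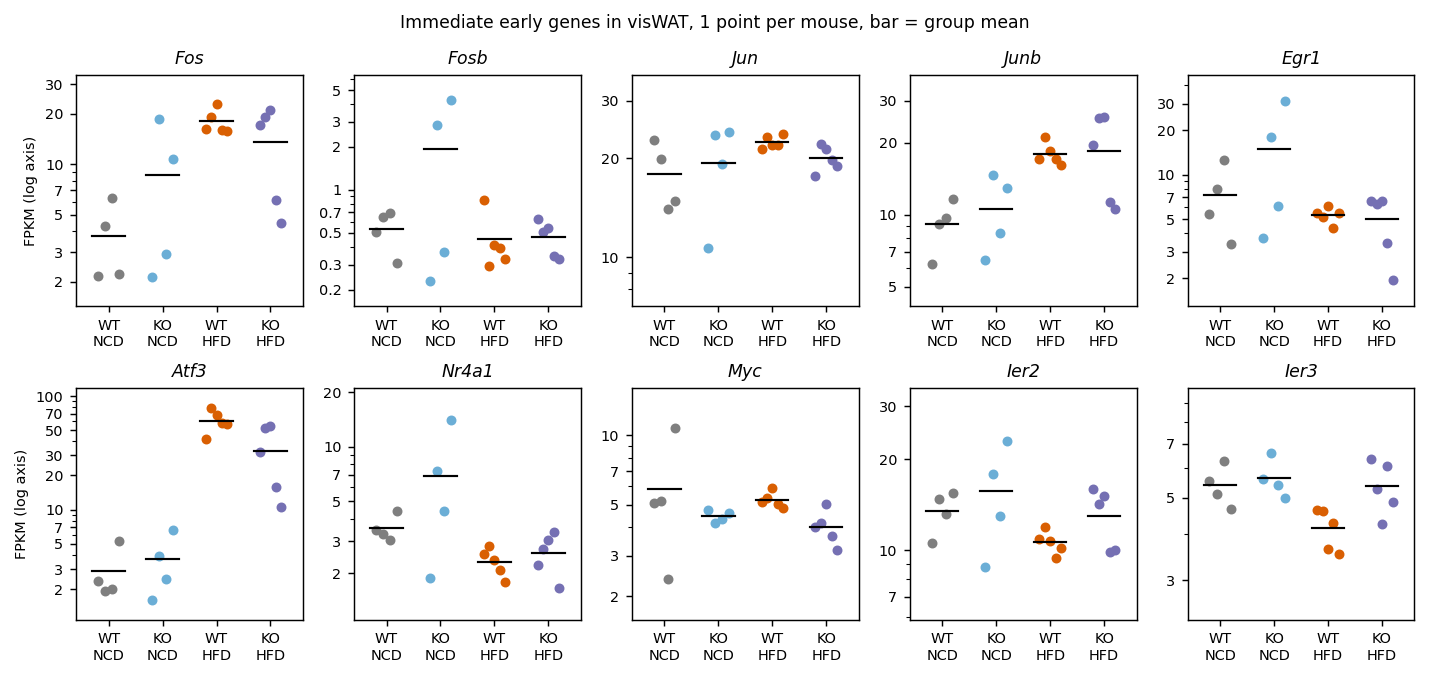
FPKM of the 10 immediate early genes in visWAT on log axes, with 1 point per mouse, 4 or 5 mice per group, and a bar at the group mean. The 5 WT mice on HFD lie above all WT mice on NCD for *Fos*, *Junb* and *Atf3*, and the KO mice spread widely for *Fos*, *Egr1* and *Nr4a1* on NCD.

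The first question was how these genes differed between the diets in visWAT of WT mice. *Atf3*, *Fos* and *Junb* rose on HFD, *Nr4a1* and *Ier3* fell, and *Jun*, *Egr1*, *Ier2* and *Myc* did not pass the test. That is 5 of the 9 members tested at an adjusted p under 0.05 (limma), beside 37.8% of all 14161 genes tested. The groups did not overlap for those same 5 members, beside 33.4% of all genes. The members' share of calls is therefore not far from that of genes in general. The members' median log2 difference was 0.01, beside -0.01 for all genes.

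*Atf3* encodes an AP-1 relative induced by cellular stress (chr1:190902493-190950236, minus strand, mm39). It was at 2.36, 1.92, 2.02 and 5.35 FPKM in mice 165, 180, 182 (the library labelled WT) and 183 of the WT group on NCD, and at 41.6, 78.7, 67.5, 57.7 and 56.3 FPKM in WT mice 154, 155, 161, 162 and 164 on HFD. Every HFD mouse was above every NCD mouse, and the mean was 20.7-fold higher. The log2 difference was 4.02 ± 0.25 (SE) on the log2(FPKM + 1) scale (adjusted p = 3.1e-06, limma), with the lowest exact permutation p that 5 against 4 mice allow, 0.00794. In a bulk sample, more cells that express a gene and more RNA per cell cannot be told apart.

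*Fos* is the classic partner of Jun proteins in the AP-1 dimer (chr12:85520664-85524047, plus strand). Its levels were 2.16, 4.30, 6.28 and 2.22 FPKM in mice 165, 180, 182 (the library labelled WT) and 183 of the WT group on NCD, and 16.2, 19.1, 22.8, 16.1 and 15.8 FPKM in the 5 WT mice on HFD in the order above. The HFD mice lay close together and all above the NCD mice. The mean was 4.82-fold higher and the log2 difference 2.08 ± 0.25 (adjusted p = 0.00016).

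*Junb*, an AP-1 partner that also tempers the activity of Jun (chr8:85701113-85705347, minus strand), was at 6.22, 9.13, 9.68 and 11.6 FPKM on NCD and at 17.1, 21.1, 18.6, 17.2 and 16.1 FPKM on HFD. The groups did not overlap and the log2 difference was 0.93 ± 0.15 (adjusted p = 0.0012). Its relative *Jun* (chr4:94937271-94940459, minus strand) ranged from 14.0 to 22.8 FPKM on NCD and from 21.3 to 23.7 FPKM on HFD, and its difference of 0.34 ± 0.14 did not pass (adjusted p = 0.079), though without mouse 165 it was 0.46 and passed (adjusted p = 0.016), and without mice 182 and 183 it was 0.068 and did not. *Fosb*, a close relative of *Fos* (chr7:19036621-19043976, minus strand), was at 0.309 to 0.686 FPKM on NCD and at 0.296 to 0.845 FPKM on HFD, below the level needed for the test.

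*Nr4a1* encodes an orphan nuclear receptor with roles in macrophages and in glucose metabolism (chr15:101152150-101172676, plus strand). It was at 3.46, 3.30, 3.06 and 4.40 FPKM on NCD and at 2.54, 2.81, 2.36, 2.08 and 1.79 FPKM on HFD, so that all HFD mice were lower (log2 difference -0.46 ± 0.11, adjusted p = 0.010). *Ier3*, which encodes a regulator of cell survival and ERK signaling (chr17:36132576-36133815, plus strand), was at 4.68 to 6.30 FPKM on NCD and at 3.53 to 4.63 FPKM on HFD (-0.32 ± 0.10, adjusted p = 0.030). On the TPM scale, where each library sums to the same total, the median of all genes in this comparison moved by 0.38. *Ier3* stood there at 0.079 and *Nr4a1* at -0.13, and neither passed, so both calls, and the direction of *Ier3*, depend on the scaling. This scale divides by the summed FPKM of a library, which was 564718 in mouse 183 and 243503 to 309820 in the other WT mice on NCD. Seminal vesicle markers summed to as much as 254900 FPKM in this NCD group. The part of mouse 183 in the shift was not tested. *Fos*, *Junb* and *Atf3* passed on both scales, and all 5 passed without mice 182 and 183, a fit whose share of all genes called is not given here. The call of *Ier3* was lost with no filter on low values (adjusted p = 0.056) and when mouse 161, 162, 164, 165, 180 or 182 was left out (adjusted p = 0.051 to 0.073). *Egr1*, a zinc-finger factor (chr18:34992876-34998037, plus strand), was at 3.38 to 12.5 FPKM on NCD and at 4.33 to 6.13 FPKM on HFD (-0.28 ± 0.28, adjusted p = 0.46).

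*Myc*, a driver of growth and ribosome production (chr15:61857240-61862223, plus strand), spread most in the NCD group, from 2.38 FPKM in the library labelled WT of mouse 182 to 10.7 FPKM in mouse 183, while the 5 HFD mice lay between 4.85 and 5.93 FPKM. Its log2 difference was 0.01 ± 0.29. *Ier2*, a nuclear protein gene of less known function (chr8:85387960-85389483, minus strand), was at 10.6 to 15.4 FPKM on NCD and at 9.40 to 11.9 FPKM on HFD (-0.31 ± 0.11, adjusted p = 0.053). *Ier2* was called by edgeR (adjusted p = 0.031) and DESeq2 (adjusted p = 0.019), and by limma without mouse 165 (adjusted p = 0.0084).

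In KO mice the same diet comparison gave a call for *Atf3* alone among the 10 members tested, beside 43.7% of all 14026 genes. *Atf3* was at 1.62, 3.94, 2.47 and 6.68 FPKM in KO mice 166, 179, 197 and 199 on NCD and at 32.5, 52.0, 54.3, 15.7 and 10.6 FPKM in KO mice 151, 152, 153, 156 and 157 on HFD. All HFD mice were above all NCD mice, with mice 156 and 157 lowest among them (log2 difference 2.73 ± 0.51, adjusted p = 0.0031, mean 8.98-fold higher). It was also the single member of 10 whose groups did not overlap, beside 38.4% of all genes. The edgeR and DESeq2 tests on reads recovered from the FPKM called 3 and 5 of 10 members here, beside 6294 and 6808 of all genes, among them *Nr4a1* at log2 differences of -1.44 and -1.42 and *Fosb* at -2.06 and -2.05. The members' median log2 difference was -0.10, beside 0.0094 for all genes.

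*Fos* in KO mice was at 2.14, 18.7, 2.92 and 10.8 FPKM on NCD and at 17.1, 19.1, 21.0, 6.10 and 4.45 FPKM on HFD, in the order of mice just given. The groups overlapped (0.78 ± 0.64, adjusted p = 0.35). KO mouse 179 on NCD lay among HFD mice 151, 152 and 153, and NCD mouse 199 lay above only the low HFD mice 156 and 157. *Junb* showed the same 2 mice low on HFD, with 19.5, 25.4, 25.7, 11.3 and 10.6 FPKM, against 6.47 to 14.7 FPKM on NCD (0.72 ± 0.32, adjusted p = 0.0998). *Egr1* reached 17.9 and 31.6 FPKM in KO mice 179 and 199 on NCD, against 3.74 and 6.12 FPKM in mice 166 and 197, while the 5 HFD mice were at 1.93 to 6.62 FPKM (-1.10 ± 0.56, adjusted p = 0.14).

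**Figure D2:**
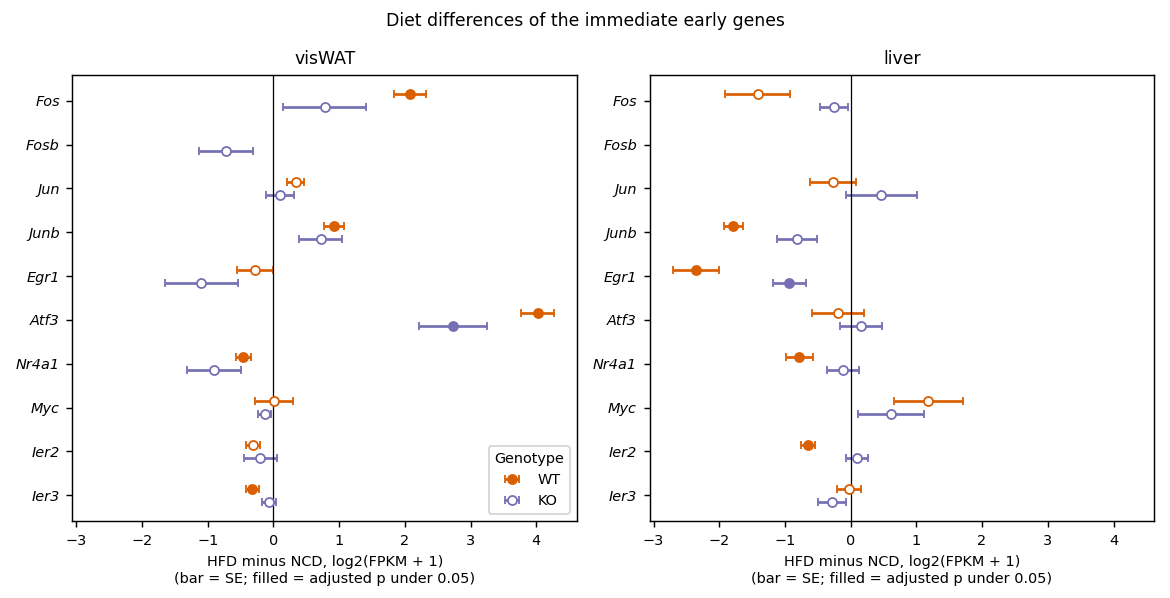
Log2 difference between HFD and NCD for each tested immediate early gene in visWAT and liver, on the log2(FPKM + 1) scale, with bars for the SE and filled points for an adjusted p under 0.05 (5 HFD and 4 NCD mice per genotype). *Atf3* rose in visWAT of both genotypes, and *Egr1* fell in liver of both.

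The next question was whether genotype moved these genes within a diet. On HFD, 0 of 9 members tested in visWAT passed with limma, beside 0.0215% of 13963 genes. The edgeR and DESeq2 tests also called 0 members, beside 3 and 146 of all genes, and DESeq2 gave *Ier3* no adjusted p. At an unadjusted p under 0.05 limma gave 4 of 9, *Jun*, *Atf3*, *Ier3* and *Myc*, beside 21.5% of all genes. The mean of *Atf3* in KO mice was 0.547 of that in WT mice (log2 difference -1.07 ± 0.42, adjusted p = 0.22), with KO mice 156, 157 and 151 below all WT mice and mice 152 and 153 within the WT range. *Myc* was at 4.02, 4.17, 5.05, 3.66 and 3.19 FPKM in the 5 KO mice, 4 of them below the lowest WT mouse at 4.85 FPKM (-0.33 ± 0.09, adjusted p = 0.22). *Ier3* was higher in 4 of 5 KO mice than in any WT mouse (0.31 ± 0.10, adjusted p = 0.22). None of the 9 members separated the genotypes without overlap, beside 3.01% of all genes.

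On NCD, 0 of 10 members passed in visWAT with limma, edgeR or DESeq2, nor did any reach an unadjusted p under 0.05, beside 0.0% of all 14063 genes by limma (528 at an unadjusted p under 0.05, 0 by edgeR and 8 by DESeq2). No member separated the genotypes without overlap, beside 2.46% of genes. The KO means were higher for *Fosb* (3.6-fold), *Fos* (2.31-fold), *Egr1* (2.03-fold) and *Nr4a1* (1.94-fold), and mice 179 and 199 were the highest 2 KO mice for each of these. *Fosb* was at 0.230, 2.85, 0.367 and 4.28 FPKM in KO mice 166, 179, 197 and 199, and *Nr4a1* at 1.87, 7.32, 4.40 and 14.1 FPKM. Leaving out mice 182 and 183 left 0 calls.

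The difference between the diet effects of the genotypes was tested as an interaction, and 0 of 10 members passed in visWAT (limma; 0 by edgeR and by DESeq2), beside 0.0% of 14136 genes (1867 at an unadjusted p under 0.05, 0 by edgeR and 19 by DESeq2). *Atf3* alone among the members had an unadjusted p under 0.05 (-1.29 ± 0.61, adjusted p = 0.38). The interaction of *Fos* was -1.30 ± 0.73. Calls for *Fos* and *Junb* in WT mice and their absence in KO mice therefore do not show that the diet effect differed between genotypes.

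Markers of several cell types moved along the same mice as *Atf3*. All 12 of 12 fixed macrophage markers rose on HFD in WT visWAT and 11 of 12 in KO visWAT. Of all genes tested, 37.8% were called in WT and 43.7% in KO visWAT, in either direction, and these shares stand beside each list in this paragraph. None of the 12 macrophage markers was at 0 in a whole group. Their summed level was 259 to 367 FPKM in WT and 330 to 552 FPKM in KO mice on NCD, and 2180 to 3121 FPKM in WT mice on HFD. In KO mice on HFD the sum was 1764, 2607 and 2828 FPKM in mice 151, 152 and 153 and 947 and 891 FPKM in mice 156 and 157, which were the 2 mice lowest for *Atf3*. On NCD, the KO mice with high *Fos* had sums of 387 (mouse 179) and 438 FPKM (mouse 199), and mouse 197 with low *Fos* had the highest, 552 FPKM. Of 8 fibroblast and progenitor markers, 7 rose in WT and 4 in KO visWAT, none was at 0 in a whole group, and their sum was 215 to 291 FPKM in WT and 274 to 329 FPKM in KO mice on NCD and 602 to 773 FPKM in WT mice on HFD. In KO mice 151, 152, 153, 156 and 157 on HFD it was 451, 788, 731, 292 and 362 FPKM, again lowest in mice 156 and 157. Mature adipocyte markers ran the other way, with 6 of 10 lower and 1 higher on HFD in WT mice, 4 lower and 2 higher in KO mice and none at 0. Their sum was 10480 to 21830 FPKM in WT and 16910 to 21140 FPKM in KO mice on NCD, 5102 to 6412 FPKM in WT mice on HFD, and 10020, 6073, 5729, 12220 and 12030 FPKM in KO mice 151, 152, 153, 156 and 157. The part of these cell types in the levels of *Atf3* and *Fos* was not tested.

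**Figure D3:**
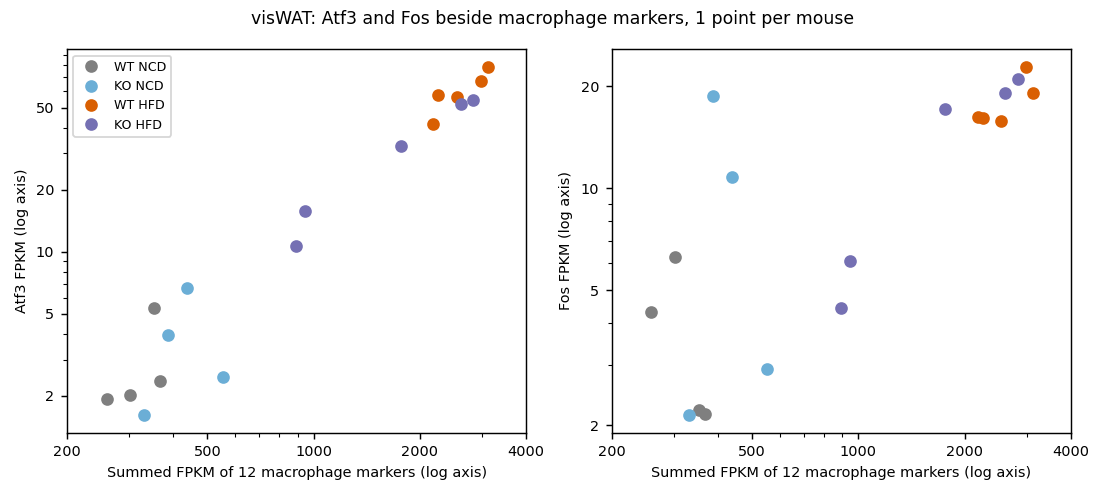
*Atf3* and *Fos* in visWAT (FPKM, log axis) against the summed FPKM of 12 macrophage markers (log axis), with 1 point per mouse and colours for the 4 groups. All 10 HFD mice lie above all 8 NCD mice in both *Atf3* and the marker sum, while *Fos* in KO mice 179 and 199 on NCD is high at sums of 387 and 438 FPKM.

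The values of single mice were then followed across genes. In KO mice on HFD, mice 156 and 157 were the lowest 2 of 5 for 7 of the 10 members in visWAT (*Fos*, *Fosb*, *Junb*, *Egr1*, *Atf3*, *Ier2* and *Myc*), beside 20.2% of all genes over the expression filter. In their livers they were the lowest 2 for 7 of 10 as well (*Fos*, *Jun*, *Junb*, *Egr1*, *Atf3*, *Ier3* and *Nr4a1*), beside 10.1% of genes. In KO mice on NCD, mice 179 and 199 were the highest 2 of 4 for 8 of 10 members in visWAT, beside 13.1% of genes, and for 6 of 10 in liver, beside 16.8%. These pairs of mice were picked after their values were seen, so the counts are descriptions and no test was made of them.

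A test that does not pick mice took the deviation of each mouse from its group mean. Over all 18 mice in visWAT, *Egr1* was the gene whose deviations followed those of *Fos* most closely of 14135 genes tested, with r = 0.887 (permutation p = 0.0011), rho = 0.946 (permutation p = 0.00026) and r = 0.882 without the 2 mice farthest in *Fos*. *Junb* was at rank 3 with r = 0.862 (permutation p = 0.0026), rho = 0.843 (permutation p = 0.0033) and r = 0.824 without those mice. With limma's slope test adjusted over all genes, *Egr1* (adjusted p = 0.017) and *Junb* (adjusted p = 0.034) were called among the other members, beside 0.0212% of all genes, and 0 to 2 members were called when 1 mouse was left out in turn.

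*Ier2* (r = 0.793, rho = 0.796, adjusted p = 0.22) was at rank 10, *Fosb* (r = 0.726, rho = 0.796, adjusted p = 0.44) was at rank 33 and *Atf3* (r = 0.665, rho = 0.668, adjusted p = 0.49) at rank 87, and none of the 3 passed. *Nr4a1* (r = 0.552), *Jun* (0.453), *Ier3* (0.142) and *Myc* (-0.112) did not pass either. *Apod*, which encodes a lipid-binding lipoprotein, was the closest gene outside the list (r = 0.883, adjusted p = 0.017), followed by *Gmpr2* (0.832), *Spaca9* (0.830), *Tmod1* (0.827) and *Lbx2* (0.825), which did not pass.

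Among the 10 HFD mice alone, a split chosen after the data were seen, 5 members followed *Fos*. These were *Junb* (r = 0.963), *Egr1* (0.952), *Atf3* (0.950), *Ier2* (0.909) and *Myc* (0.873). For *Junb* the permutation p was 0.0032 and rho 0.952 (permutation p = 0.0022). Without mice 157 and 153, the farthest in *Fos*, r was between 0.743 (*Myc*) and 0.929 (*Junb*) for these 5 genes. However, 10.2% of all 13962 genes followed *Fos* in the HFD mice by the same test, so a call there is shared by many genes.

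**Figure D4:**
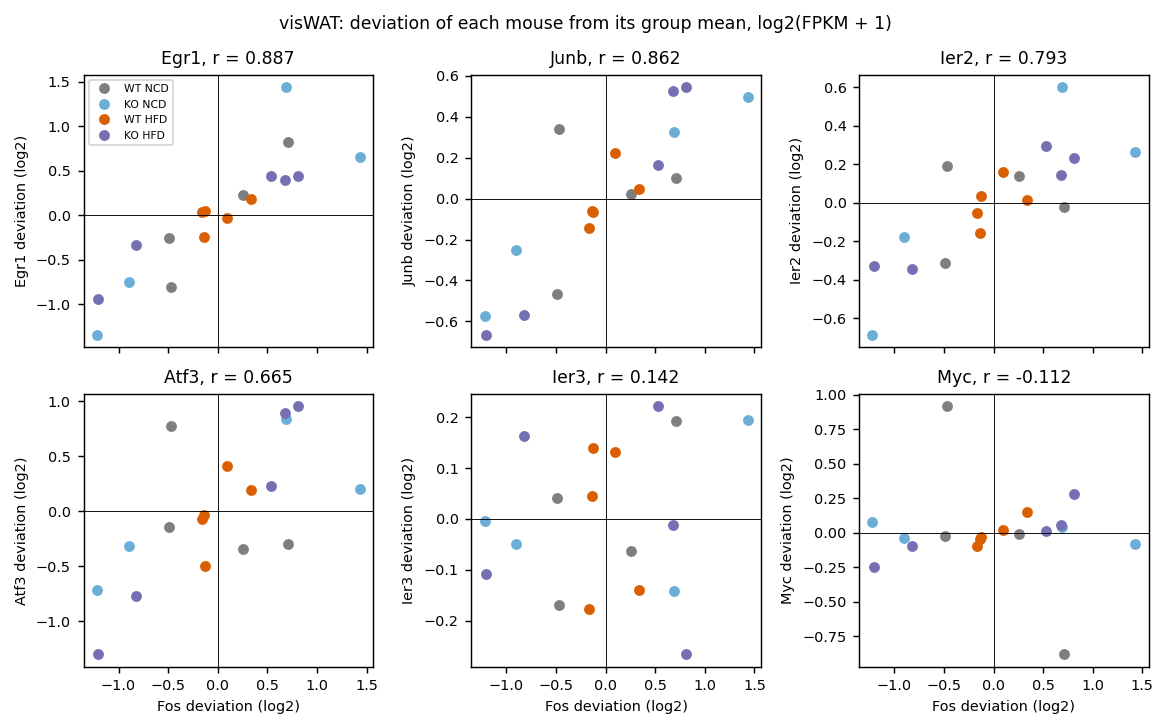
Deviation of each visWAT library from its group mean on the log2(FPKM + 1) scale, for 6 members against *Fos*, with 18 mice coloured by group and Pearson's r above each panel. *Egr1* and *Junb* follow *Fos* in all 4 groups together (r = 0.887 and 0.862), and r is 0.142 for *Ier3* and -0.112 for *Myc*.

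In liver the order of levels was different. *Junb* had the highest median over 18 libraries at 19.8 FPKM, followed by *Ier2* at 19.0 and *Jun* at 11.3 FPKM, and the other 7 members were at medians of 2.44 FPKM (*Myc*) or less. *Fos* was at 0.641 FPKM and *Fosb* at 0.0972 FPKM, the latter from as few as 2 reads in a library. *Fos* spanned 49.9-fold and *Egr1* 29.0-fold between libraries.

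**Figure D5:**
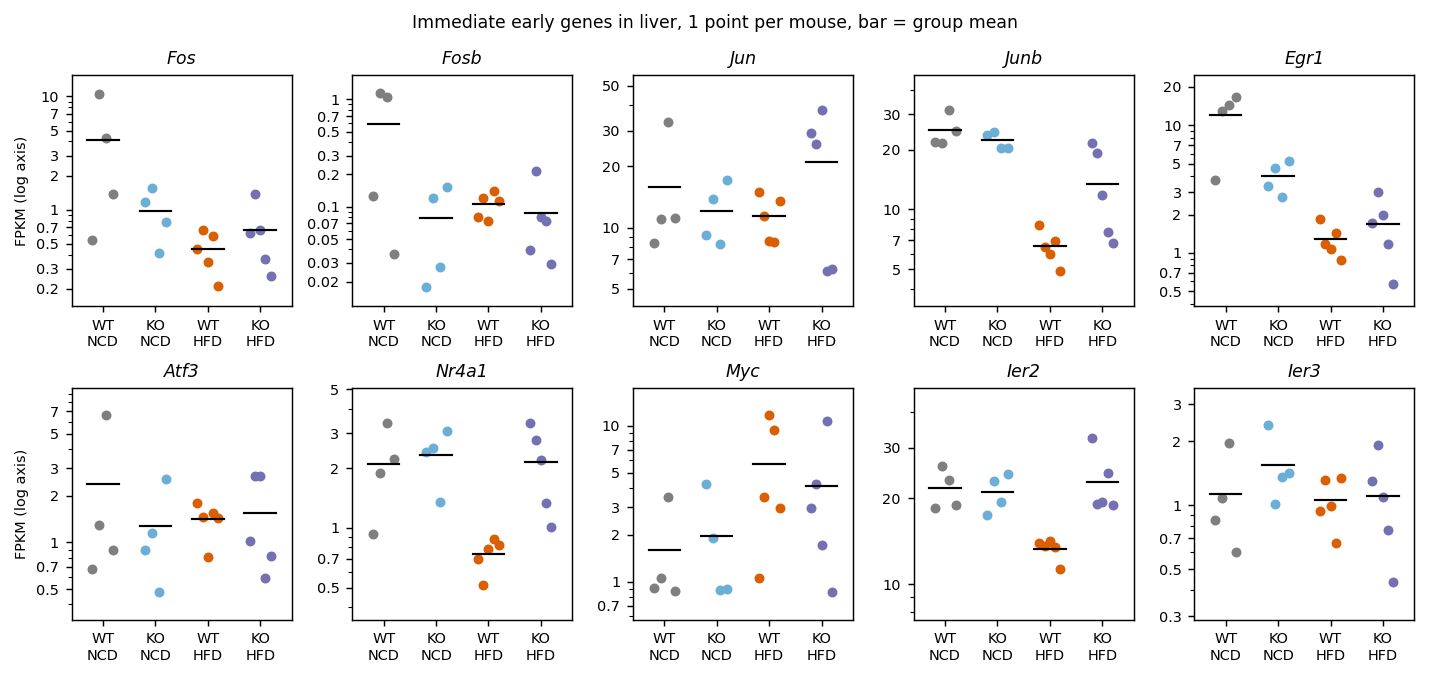
FPKM of the 10 immediate early genes in liver on log axes, with 1 point per mouse, 4 or 5 mice per group, and a bar at the group mean. All WT mice on HFD lie below all WT mice on NCD for *Junb*, *Egr1*, *Nr4a1* and *Ier2*.

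In WT liver, *Egr1*, *Junb*, *Nr4a1* and *Ier2* fell on HFD and no member passed as higher, 4 of 9 tested beside 25.3% of all 13330 genes, and the same 4 did not overlap between diets, beside 24.8% of genes. The members' median log2 difference was -0.66, beside -0.0010 for all genes. Without mice 182 and 183, 3 of 9 passed, *Egr1* at -1.84, *Junb* at -1.60 and *Ier2* at -0.69. The share of all genes called without these mice is not given here, so that count is not read as a result about the members. *Egr1* was at 3.69, 13.0, 14.5 and 16.6 FPKM in WT mice 165, 180, 182 and 183 on NCD and at 1.85, 1.17, 1.08, 1.44 and 0.877 FPKM in WT mice 154, 155, 161, 162 and 164 on HFD. Mouse 165 was far below the other NCD mice and still above every HFD mouse (log2 difference -2.36 ± 0.35, adjusted p = 0.0015).

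*Junb* was at 21.7, 21.5, 31.7 and 24.9 FPKM on NCD and at 8.38, 6.44, 5.99, 6.98 and 4.89 FPKM on HFD, with a wide gap between the groups (-1.78 ± 0.15, adjusted p = 8.2e-05). This is the opposite direction to visWAT, where it rose, but the difference between tissues in the diet effect was not tested. *Ier2* was at 18.5 to 25.9 FPKM on NCD and at 11.3 to 14.1 FPKM on HFD (-0.66 ± 0.11, adjusted p = 0.0024). *Nr4a1*, in liver a gene tied to fasting glucose production, was at 0.930, 1.90, 3.40 and 2.22 FPKM on NCD and at 0.517 to 0.876 FPKM on HFD (-0.78 ± 0.20, adjusted p = 0.020), and without mice 182 and 183 it was at -0.45 and did not pass (adjusted p = 0.096).

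*Fos* in WT liver was at 0.540, 10.4, 4.27 and 1.37 FPKM on NCD and at 0.209 to 0.658 FPKM on HFD. NCD mouse 165 lay among the HFD mice, and the difference of -1.42 ± 0.50 missed the threshold with limma (adjusted p = 0.065), while edgeR (-3.21, adjusted p = 0.011) and DESeq2 (-3.21, adjusted p = 0.00044) called it. *Myc* ran the other way, at 0.872 to 3.52 FPKM on NCD and at 1.05, 3.48, 11.7, 9.32 and 2.98 FPKM on HFD, and did not pass (1.18 ± 0.53, adjusted p = 0.14). In the liver library of WT mouse 182, *Jun* (33.1 FPKM), *Atf3* (6.61 FPKM) and *Myc* (3.52 FPKM) were each the highest of the group, and its macrophage markers summed to 348 FPKM, against 91.2 to 126 FPKM in the other 3 mice and 97.5 to 138 FPKM in WT mice on HFD. The part of these cells in the 3 levels was not tested.

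In KO liver, *Egr1* fell on HFD and was the single call among 9 members, beside 22.2% of all 13149 genes. It was at 3.35, 4.63, 2.75 and 5.21 FPKM in KO mice 166, 179, 197 and 199 on NCD and at 1.72, 2.99, 1.97, 1.17 and 0.573 FPKM in KO mice 151, 152, 153, 156 and 157 on HFD. Only mouse 152 overlapped the NCD range (-0.93 ± 0.25, adjusted p = 0.027), and no member was free of overlap, beside 21.5% of genes. The call was lost when mouse 156, 179 or 199 was left out (adjusted p = 0.059, 0.064 and 0.077). *Junb* was at 20.4 to 24.4 FPKM on NCD and at 21.6, 19.2, 11.8, 7.66 and 6.80 FPKM on HFD, with mouse 151 inside the NCD range (-0.82 ± 0.30, adjusted p = 0.083).

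Between the genotypes on HFD, 0 of 9 members passed in liver with limma, beside 0.197% of 13215 genes, and edgeR called 0 while DESeq2 called 3, *Junb*, *Ier2* and *Nr4a1*. Over all genes edgeR called 27 and DESeq2 259. The same 3 had an unadjusted p under 0.05 with limma, beside 12.6% of all genes. *Ier2* and *Nr4a1* did not overlap between genotypes, 2 of 9 beside 2.62% of all genes. *Nr4a1* was at 3.38, 2.78, 2.19, 1.34 and 1.01 FPKM in KO mice 151, 152, 153, 156 and 157, all above the highest WT mouse at 0.876 FPKM (mean 2.89-fold higher, log2 difference 0.80 ± 0.19, adjusted p = 0.15). *Ier2* was at 32.5, 19.1, 19.5, 24.4 and 18.9 FPKM in the same KO mice, all above the highest WT mouse at 14.1 FPKM (1.72-fold, 0.71 ± 0.14, adjusted p = 0.087). For both genes the exact permutation p was 0.00794, the smallest that 5 against 5 mice allow.

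*Jun* in liver split the KO mice on HFD, with 29.2, 25.7 and 37.8 FPKM in mice 151, 152 and 153 and 6.14 and 6.23 FPKM in mice 156 and 157, while WT mice lay between 8.53 and 15.0 FPKM. The KO mice thus fell on both sides of the WT range (0.52 ± 0.48, adjusted p = 0.70). On NCD, 0 of 9 members passed between genotypes in liver with limma, edgeR or DESeq2, beside 0.00758% of 13193 genes, and no member was free of overlap, beside 2.8% of genes. *Egr1* had an unadjusted p under 0.05, with KO mice at 2.75 to 5.21 FPKM and 3 of 4 WT mice at 13.0 FPKM or more (-1.25 ± 0.40, adjusted p = 0.996). The 3 high mice include 182 and 183, and without these 2 the difference was -0.73. The interaction in liver gave 0 of 9 members by limma, edgeR and DESeq2, beside 0.0151% of 13248 genes, where edgeR called 1 gene and DESeq2 58. At an unadjusted p under 0.05 there were 3 members, *Ier2* (0.75 ± 0.21), *Egr1* (1.43 ± 0.46) and *Junb* (0.97 ± 0.36), beside 811 genes (6.12%). Without mice 182 and 183 the *Egr1* interaction was 0.91.

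In liver, 0 of the 8 members tested followed *Fos* across the 18 mice after adjustment with limma, beside 0.0% of 13247 genes. Without mouse 180, which had the highest *Fos*, 3 did. The share of all genes called in that fit is not given here, so these 3 calls are not read as a result about the members. None of the 8 had a permutation p under 0.05 for r. By rank, *Atf3* (rho = 0.614, permutation p = 0.020), *Junb* (rho = 0.525, permutation p = 0.045) and *Egr1* did. *Fosb*, too low in liver for the test over all genes, had r = 0.863 (permutation p = 0.025), rho = 0.754 (permutation p = 0.022) and r = 0.756 without mice 180 and 165. *Egr1* had the highest r of the 8 (r = 0.597, permutation p = 0.13; rho = 0.542, permutation p = 0.047; r = 0.387 without mice 180 and 165). Outside the list, *Gins4* (r = 0.833), *Golt1b* (0.745), *Snrnp35* (0.736), *Tfrc* (0.728) and *Pard3bos3* (0.703) were closest, and none passed.

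Set side by side over 36 libraries, visWAT held more of most members than liver. *Fos* was higher in visWAT in 17 of 18 mice with a median ratio of 15.3, *Atf3* in 17 of 18 with a median ratio of 16.1, and *Ier3* in 18 of 18 with a median ratio of 4.34. With limma 9 of 10 members differed, 8 higher and *Ier2* lower in visWAT, but so did 88.8% of all 14657 genes. *Ier2* was lower in 18 of 18 mice (-0.54 ± 0.09) and *Junb* in 9 of 18 (-0.15 ± 0.14). On the TPM scale, which moved the median of all genes by 0.81, *Ier2* (0.38) and *Junb* (0.79) were higher in visWAT and both passed, so their order between tissues depends on the scaling, while the other 8 members were higher in visWAT on both scales.

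Whether a mouse that was high in one tissue was high in the other was asked of each member over the 18 mice. *Junb* had the highest r, 0.573 (permutation p = 0.10; rho = 0.536, permutation p = 0.073; r = 0.527 without the 2 farthest mice), followed by *Ier2* at 0.50, *Fos* at 0.455 and *Egr1* at 0.448, and *Jun* was at 0.021. *Fos* had an unadjusted permutation p of 0.032 (rho = 0.567, permutation p = 0.035; r = 0.522 without the 2 farthest mice). With adjustment over all 11489 genes, 0 of 9 members and 0.0% of genes passed by this permutation test, the smallest adjusted p being 0.34, and 531 genes (4.62%) had a positive r at an unadjusted p under 0.05. The median r was 0.35 for the members tested and 0.04 for all genes.

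The other genes of the pathway were counted by list. Of 30 other early response genes, 28 were tested in WT visWAT, and 11 rose and 3 fell on HFD (median 0.15), or 14 of 28 called beside 37.8% of all genes. *Egr2*, a relative of Egr1 used by macrophages and early adipocytes, rose by 2.27 ± 0.11, *Gadd45b*, a stress sensor, by 1.97 ± 0.18, *Ier5* by 1.30 ± 0.10 and *Plk2* by 1.22 ± 0.13. In KO visWAT 6 of 27 rose and 7 fell (median -0.21), beside 43.7% of all genes called, with *Gadd45b* at 1.55 ± 0.22, *Egr2* at 1.38 ± 0.39, *Errfi1*, an inhibitor of EGF receptor, at -1.37 ± 0.24 and *Ier5* at 0.88 ± 0.19. In WT liver 3 of 24 rose and 10 fell (median -0.53), beside 25.3% of all genes called, led by *Ccn1* at -1.78 ± 0.19, *Gadd45g* at 1.60 ± 0.47, *Btg2* at -1.28 ± 0.26 and *Gadd45b* at -1.20 ± 0.21. In KO liver 1 of 24 rose and 4 fell, beside 22.2%.

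Of 17 brakes on the response, phosphatases and mRNA-decay factors that shut these genes off again, 2 rose and 1 fell in WT visWAT, *Zfp36l2* (0.86 ± 0.08), *Spred1* (0.78 ± 0.07) and *Dusp4* (-1.01 ± 0.19), which is 3 of 17 beside 37.8% of all genes. In KO visWAT 1 of 17 rose and 6 fell, with *Dusp4* (-1.38 ± 0.12) and *Spry4* (-0.99 ± 0.11) lowest, beside 43.7% of all genes called. In WT liver 2 of 16 fell, the ERK phosphatase *Dusp6* (-0.90 ± 0.14) and *Zfp36l1* (-0.69 ± 0.09), and none rose, beside 25.3% of all genes. Of 24 upstream factors and kinases, 8 rose and 2 fell in WT visWAT, led by *Mrtfa*, a partner of SRF (0.89 ± 0.07), and 5 rose and 9 fell in KO visWAT, beside 37.8% and 43.7% of all genes. *Spry1*, lower in KO liver on HFD (-0.40 ± 0.07, adjusted p = 0.049, limma), was the single gene of these 3 lists that passed between genotypes or in an interaction.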

How the data were processed

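PolyA RNA of visWAT and liver from 18 mice was sequenced by the authors on a NovaSeq instrument as paired reads, which were trimmed with fastp, aligned to mm39 with HISAT2 and counted per gene with featureCounts 1.5.0-p3. The values used were the deposited FPKM, which the authors computed from these counts. Whether counting used strand is not given in the sources used here. Reads per gene were recovered from the FPKM, with library sizes taken from the read counts deposited with the genotype comparisons. In every library, 100.0% of values came out whole within 0.01 read. The FPKM also hold a scaling between libraries, so that 1 read is worth a different amount in visWAT and liver beyond the depth. The deposited genotype comparisons also hold 72 columns of per-sample values that were not used.

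Each comparison used limma 3.58.1 in R 4.3.3 on log2(FPKM + 1), with a trend, for genes with a mean of at least 0.5 FPKM in the groups compared, and Benjamini-Hochberg adjustment over all of them (threshold 0.05). Fold changes on this scale understate changes of low genes. Diet was compared within genotype, genotype within diet, and both in an interaction within tissue. For single values, exact permutation of the mice between groups (two-sided) gave a further p, and correlations between mice by 100000 permutations within groups. The alternatives were edgeR 4.0.16 and DESeq2 1.42.0 on the recovered reads, a TPM scale, a pseudocount of 0.1, no filter or a minimum mean of 1, and leaving out single mice. Fitting code was tested on simulated data. Tissue was compared with all 36 libraries, with a replicate block for the mouse as an alternative, since the same mouse number marks 1 animal in both tissues. Over genes, the deviations of the 2 libraries of a mouse correlated at -0.066 to 0.237.

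The members and gene lists were chosen with earlier results of these data known. Members described were all 10 genes, and other genes were named by the size of their change among those called, or by their likeness to *Fos*. Mice are separate animals, and their number limits the precision more than the 20875463 to 30322171 reads on genes per library.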

Additional observations from a re-analysis of the deposited data

Results flagged for a closer look

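In 7 of 80 combinations of gene and group, 1 mouse lay farther from the rest of its group than Dixon's critical value allows. For normally distributed values chance alone gives about 1 in 20. The values used were FPKM without logs, so that rate may not hold here. In liver of WT mice on NCD the flagged mouse was mouse 182 for *Jun* (33.1 FPKM), *Atf3* (6.61 FPKM) and *Myc* (3.52 FPKM), the mouse whose liver macrophage markers summed to 348 FPKM. In visWAT of the same group it was mouse 183 for *Atf3* (5.35 FPKM), the library with seminal vesicle transcripts. *Fosb* was high in visWAT of WT mouse 154 on HFD (0.845 FPKM) and in liver of KO mouse 152 on HFD (0.217 FPKM), where macrophage markers summed to 208 FPKM. *Ier2* was low in liver of WT mouse 164 on HFD (11.3 FPKM). The causes were not tested.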

How the results depend on the processing

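Of 1852 gene values recomputed under alternatives, 1812 stayed on their side of the threshold, among them uncalled values of which 68 changed sign, while 14 lost and 23 gained a call. In 3 the sign changed and the value was called on at least 1 of the scales, all on the TPM scale: *Ier3* in WT visWAT between diets (0.079, not called there), *Junb* between tissues (0.79, called there alone) and *Ier2* between tissues (0.38, called on both). The TPM scale moved the median of all genes by 0.38 in the WT diet comparison in visWAT, 0.32 between genotypes on NCD in visWAT, -0.40 in the visWAT interaction and 0.81 between tissues. Each of these comparisons includes the visWAT library of mouse 183, whose FPKM summed to 564718. The other visWAT libraries summed to 227793 to 309820 FPKM and the liver libraries to 468955 to 549786 FPKM. The tissues thus differed in this total apart from mouse 183 as well. On the TPM scale, 3 members instead of 5 passed between diets in WT visWAT. In KO visWAT the count between diets was 3 with edgeR, 5 with DESeq2 and 1 to 3 when 1 mouse was left out, with 2 without mouse 157 and 3 without mouse 166. In KO liver it was 0 with no filter on low values and 0 to 2 when 1 mouse was left out. Between genotypes in liver on HFD, DESeq2 called 3. Members that followed *Fos* in visWAT numbered 1 with *Egr1* as the reference, 5 in HFD mice, 0 in NCD mice and 0 to 2 when 1 mouse was left out, and in liver 3 without mouse 180 and 0 to 3 over all mice left out. The shares of all genes called in these refits are not given here, apart from the 10.2% in HFD mice in visWAT. With a replicate block for the mouse, 9 members differed between tissues, as without it, and *Fos* stood at 2.20. *Ier3* in WT visWAT lost its call without mouse 161, 162, 164, 165, 180 or 182, and *Nr4a1* in WT liver without mouse 183. The causes were not tested. Alternatives chosen after the data were seen were the fits without mice 182 and 183, the *Fos* fits to HFD or NCD mice alone and the same-mouse correlations. With 4 or 5 mice per group, small differences could not be resolved, and liver *Fosb* was too low to test.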

Other observations

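Stress genes outside the early response were counted in the same way. Of 15 heat shock genes, 8 rose and none fell on HFD in KO visWAT (median 0.26), led by the small chaperones *Cryab* (1.14 ± 0.14) and *Hspb1* (0.998 ± 0.19), while 3 rose and 2 fell in WT visWAT, beside 43.7% of all genes called in KO and 37.8% in WT mice. In WT liver 4 of 15 fell and none rose, beside 25.3% of all genes called, among them *Hspa1b* (-1.15 ± 0.36) and *Hspa1a* (-0.91 ± 0.28), near-identical copies whose reads may be split between them. Of 16 targets of Myc, 8 rose in KO visWAT and 2 in WT visWAT, with *Npm1*, a nucleolar protein gene, at 0.66 ± 0.08 in KO and 0.67 ± 0.12 in WT mice. In the interaction, no gene of these lists passed with limma, so the counts do not show a difference between genotypes.

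Of the ATF4 stress genes, 13 were tested in visWAT and 11 in liver. *Gdf15*, a stress cytokine, rose on HFD in visWAT of WT (2.31 ± 0.19) and KO mice (1.2 ± 0.29) and fell in WT liver (-1.39 ± 0.34). *Trib3* fell in liver of WT (-1.56 ± 0.13) and KO mice (-1.49 ± 0.29). *Chac1* rose in WT liver (1.86 ± 0.27), where 2 of 11 rose and 6 fell, beside 25.3% of all genes called, and was at -0.02 ± 0.32 in KO liver. Of the hypoxia response genes, *Vegfa* fell in visWAT of both genotypes (-1.28 ± 0.16 in WT and -1.13 ± 0.28 in KO mice), and 2 of 16 rose in WT mice, among them *Car9* (0.85 ± 0.16). In WT visWAT 3 of 16 hypoxia and 3 of 13 ATF4 genes were called in either direction, beside 37.8% of all genes. In KO visWAT it was 7 of 15 and 9 of 13, beside 43.7%.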
